A study of Mus musculus with 2 samples.

Results

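Levels are described for 46 mouse genes that build and steer mitosis, out of 43346 genes in the tables of 2 RNA-seq libraries. The genes were chosen by name for their known roles and were found by gene identifier through GENCODE M21 symbols. They comprised 9 kinases, cyclins, phosphatases and a transcription factor of mitotic entry, 9 genes of the spindle checkpoint and its target ligase, 4 of the chromosomal passenger complex, 7 of the kinetochore, 4 of the spindle, 7 of the central spindle and cytokinesis, and 6 of chromosome condensation. Both libraries were made from polyadenylated RNA of megakaryocyte-erythroid progenitors (MEP), the bone marrow stage that gives rise to red cells and platelets. The cells were primary cells of adult female C57BL/6J mice aged 5 weeks. They formed a single group with 2 biological replicates, no treatment and no other genotype, so the data allow comparisons among genes and between the replicates but no contrast of conditions. Per the labels the cells were CD34-, and CD16/32 was also named as a marker.

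Entry into mitosis is driven by cyclin-dependent kinase 1 bound to cyclins A and B, which the Cdc25 phosphatases activate and which Polo-like and Aurora kinases assist. The spindle checkpoint holds back the anaphase-promoting complex (APC/C), the ubiquitin ligase that marks securin and cyclin B for destruction, until kinetochores are attached to microtubules. Most of these genes are transcribed late in the cell cycle, through promoter elements called the cell cycle genes homology region (CHR), bound by the MuvB complex with B-Myb and FOXM1, and the CCAAT box, bound by NF-Y. Progenitors of red cells and platelets divide actively in bone marrow, and megakaryocytes later replicate DNA without completing mitosis.

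Replicate 1 held 79539457 expected counts and replicate 2 held 65305321, where an expected count is the estimated number of fragments of a gene. A count of 3 corresponded to 0.0377 and 0.0459 CPM (counts scaled by library total), and every one of the 46 genes lay above it. The labels give both replicates the same donor identifier but separate samples, so the spread between them may be partly technical. Of the lineage markers, 10 of 10 erythroid genes had at least 1 TPM (transcript abundance corrected for length and scaled to the same total in each library) in both libraries, with sums of 683.9 and 833.5 TPM. Among 12 granulocyte and monocyte genes 12 reached this level, and they summed to 32170 and 18090 TPM, led by myeloperoxidase (Mpo) at 10136 and 6523 TPM. Cd34, the antigen the label gives as negative, stood at 69.1 and 91.9 TPM. The libraries therefore held myeloid transcripts in amounts far above those of the erythroid list, and the genes below are described for the whole RNA of these samples. In such bulk RNA a smaller share of cells in mitosis and less RNA per mitotic cell cannot be told apart.

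The promoters are shown first because most of those available, though not all, held letters of the late cell cycle elements, a trait outside the choice by name. RefSeq windows on GRCm38.p6, from 250 bases before to 50 bases after the start of transcription, matched 37 of the 46 genes. Aurkb, Tpx2, Ccna2, Cdc25c, Incenp, Foxm1, Smc4, Spc24 and Kif20a had no entry. Windows are printed 5′ to 3′ on the strand of the gene, with the CHR letters (TTTGAA or TTCGAA) and CCAAT letters in capitals on either strand, so that TTCAAA and ATTGG mark matches to the opposite strand. The first 5 were chosen to show the elements in genes of several roles, and Birc5 to show a window with neither. They lie at chr9:70421505-70421804 on the minus strand (Ccnb2), chr4:118437294-118437593 on the minus strand (Cdc20), chr7:122159185-122159484 on the plus strand (Plk1), chr4:124936868-124937167 on the minus strand (Cdca8), chr11:99024140-99024439 on the minus strand (Top2a) and chr11:117848987-117849286 on the plus strand (Birc5).
Ccnb2: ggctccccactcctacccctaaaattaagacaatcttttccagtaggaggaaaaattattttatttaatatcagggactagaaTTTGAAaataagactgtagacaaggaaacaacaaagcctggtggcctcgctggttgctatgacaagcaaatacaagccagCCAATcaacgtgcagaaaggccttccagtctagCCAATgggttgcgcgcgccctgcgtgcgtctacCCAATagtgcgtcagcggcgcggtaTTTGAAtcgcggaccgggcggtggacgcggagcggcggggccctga
Cdc20: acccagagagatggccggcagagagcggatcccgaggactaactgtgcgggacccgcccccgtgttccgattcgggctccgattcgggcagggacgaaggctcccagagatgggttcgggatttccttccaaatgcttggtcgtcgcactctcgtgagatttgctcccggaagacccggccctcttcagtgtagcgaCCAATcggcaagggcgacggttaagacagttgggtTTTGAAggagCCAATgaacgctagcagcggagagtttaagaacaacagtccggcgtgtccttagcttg
Plk1: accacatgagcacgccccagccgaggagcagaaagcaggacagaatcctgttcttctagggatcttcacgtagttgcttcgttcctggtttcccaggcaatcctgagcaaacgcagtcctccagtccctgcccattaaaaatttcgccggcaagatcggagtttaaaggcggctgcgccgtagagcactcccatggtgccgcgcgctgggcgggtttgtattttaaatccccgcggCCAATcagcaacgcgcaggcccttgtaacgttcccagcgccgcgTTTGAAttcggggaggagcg
Cdca8: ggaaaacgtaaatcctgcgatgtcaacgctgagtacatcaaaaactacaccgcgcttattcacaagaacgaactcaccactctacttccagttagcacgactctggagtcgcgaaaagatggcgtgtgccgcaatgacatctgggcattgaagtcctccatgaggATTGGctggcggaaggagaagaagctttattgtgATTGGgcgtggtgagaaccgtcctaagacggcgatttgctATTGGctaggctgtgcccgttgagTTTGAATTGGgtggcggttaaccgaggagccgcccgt
Top2a: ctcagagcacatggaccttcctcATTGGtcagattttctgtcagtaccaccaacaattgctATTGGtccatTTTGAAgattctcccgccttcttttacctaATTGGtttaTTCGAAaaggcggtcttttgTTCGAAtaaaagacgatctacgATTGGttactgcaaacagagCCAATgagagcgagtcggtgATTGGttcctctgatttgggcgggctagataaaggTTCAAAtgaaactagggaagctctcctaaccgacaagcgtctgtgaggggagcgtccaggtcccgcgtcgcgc
Birc5: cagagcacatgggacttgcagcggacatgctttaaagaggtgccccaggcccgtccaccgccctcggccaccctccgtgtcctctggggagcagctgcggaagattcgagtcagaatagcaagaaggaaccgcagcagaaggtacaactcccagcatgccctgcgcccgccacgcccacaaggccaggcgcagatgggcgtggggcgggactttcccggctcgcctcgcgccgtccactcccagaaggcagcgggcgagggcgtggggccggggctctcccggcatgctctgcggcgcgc

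CHR letters were present in 29 of the 37 windows, a share of 78.4%. The same letters were present in 12.8% of the windows of 8013 detected protein-coding genes and in 19.2% of all 32851 windows. CCAAT letters were present in 27 windows of the mitotic genes (73.0%), against 38.5% of the detected genes and 37.4% of all windows. Both elements occurred together in 25 windows (67.6%), against 5.35% of the detected genes. More than a single CCAAT match was found in 16 windows (43.2%), against 15.4% of the detected genes, and 6 windows held neither set of letters. Other spellings of the CHR were not searched, so a window without these letters may still hold another form. Letters of the E2F site of early cell cycle genes (searched on either strand as TTCCCGC, as TTCGCGC, as TTGCCGC and as TTGGCGC, with 2 matches overlapping another element) were present in 6 windows (16.2%), close to the 18.6% of detected genes. A match of letters is a description of the window and no measure of binding.

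The matches also lay at like positions. Counting from the start of transcription to the first letter of a match, 29 of 39 CHR matches fell within 50 bases of the start on either side (74.4%), against 23.9% of matches in detected genes. In Ccnb2, which encodes cyclin B2, the CHR nearest the start lay at position 5 behind CCAAT letters at -87, -54 and -21. In Plk1, the Polo-like kinase that drives entry and spindle assembly, CHR letters lay at 31 and CCAAT letters at -14. The window of Top2a, the topoisomerase that untangles sister chromatids, held the most elements shown, with 4 CHR and 6 CCAAT matches. In Cdca8, which encodes Borealin, the CHR at 14 overlapped a CCAAT match, the only such overlap among the mitotic genes. CCAAT matches were most often upstream, with 40 of 57 between -100 and -1 (70.2% against 50.6% in detected genes). In 25 windows a CCAAT match preceded a CHR, at a median distance of 32 bases between first letters, taking the closest pair of each window. Repeated CCAAT matches, more frequent in windows of the mitotic genes, favour a short closest distance, which limits the next comparison. Among windows with such a pair, this distance was 20 to 50 bases in 56.0% of the mitotic genes (14 of 25) and in 38.7% of the detected genes (86 of 222), a range chosen after the values were seen. The windows lay within 50 bases of the start of the most abundant coding transcript for 28 genes and over 300 bases away for Kif2c, Kif4 and Prc1. In between were Knstrn (-274 bases), Pttg1 (236), Mad2l1 (-169), Bub3 (148), Ncapd2 (115) and Ccnb1 (84), with negative values upstream. Knstrn, Mad2l1 and Pttg1 were among the 6 windows with neither CHR nor CCAAT letters. The windows of Knstrn and Mad2l1 ended before that transcript began, so absence there does not describe its promoter.

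**Figure D1:**
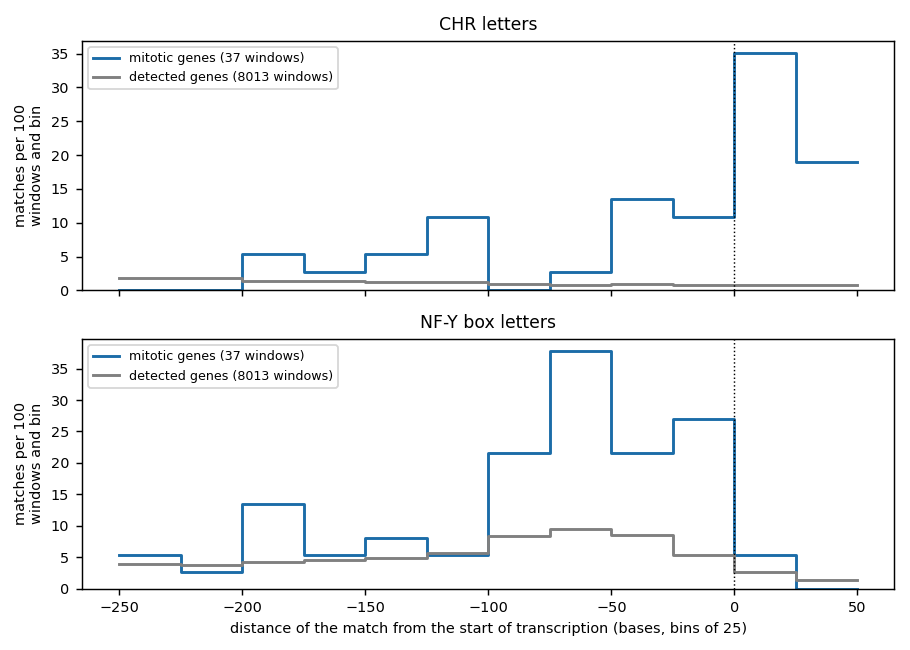
Matches of CHR letters (upper panel) and of the CCAAT letters bound by NF-Y (lower panel) per 100 promoter windows in bins of 25 bases, against distance from the start of transcription in bases, for 37 mitotic genes (blue) and 8013 detected protein-coding genes (grey). CHR matches of the mitotic genes were densest in the 25 bases after the start, at 35.1 per 100 windows, and CCAAT matches between 75 and 50 bases before it.

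Of the 46 genes, 44 were detected, meaning at least 1 TPM in both libraries. The share of all protein-coding genes detected was 46.9%. The median gene stood at 12.9 TPM in replicate 1 and 9.70 in replicate 2, below the 15.9 and 16.9 TPM of detected protein-coding genes and below the 35.9 and 39.5 TPM of 35 genes of DNA replication. Levels ranged over more than 2 orders of magnitude: 13 genes had a mean of 50 TPM or more, 11 lay between 10 and 50, 6 between 5 and 10 and 16 below 5. Ranked by mean, 10 of the 45 pairs of neighbours had library values that did not overlap, so most neighbours in the order did not differ beyond their spread.

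**Figure D2:**
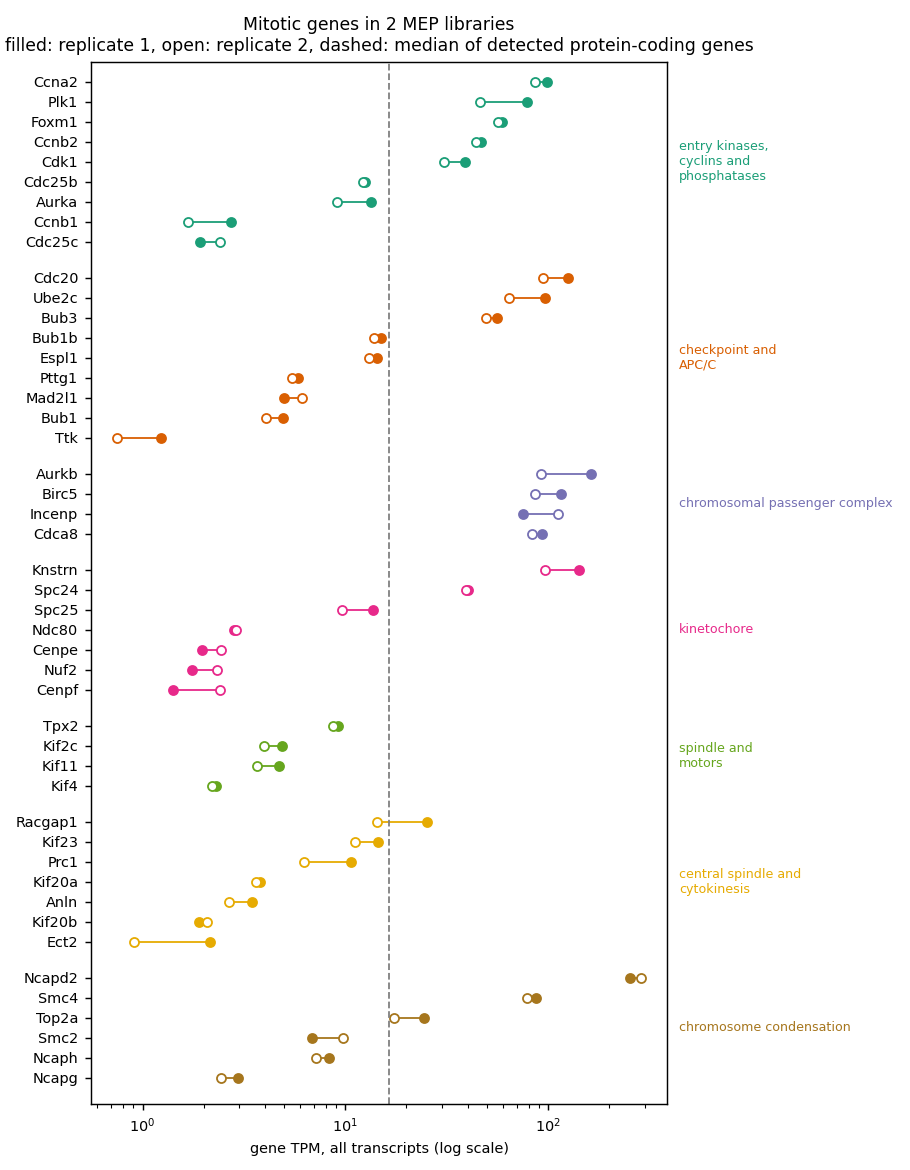
Gene TPM (log scale) of the 46 mitotic genes by role, with replicate 1 as filled and replicate 2 as open circles joined by a line, and the median of detected protein-coding genes, 16.4 TPM, as a dashed line. The 4 passenger complex genes all lie above 75 TPM in both libraries, whereas most kinetochore, spindle and cytokinesis genes lie below 16.4 TPM.

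Among the entry genes, cyclin A2 (Ccna2) had the highest level, at 98.9 and 85.9 TPM in replicates 1 and 2. Plk1 stood at 78.7 and 46.1 TPM. Foxm1, the transcription factor that acts on late cell cycle promoters, stood at 59.4 and 56.7 TPM. These 3 genes were above the median detected gene in both libraries. Cyclin B2 (Ccnb2) was found at 46.4 and 44.1 TPM, with its 2 libraries almost equal. Cyclin B1 (Ccnb1), its close relative, was found at 2.73 and 1.68 TPM. The B2 transcript thus exceeded B1 by 4.39 ± 0.44 on the log2 scale (SD, n = 2), or 21.02-fold, in TPM, and by 31.6-fold on coding transcripts alone. The expected counts of Ccnb1 were not whole numbers, to within 0.005, in either library, nor was that of Cenpe in replicate 1, as happens where reads are divided with other sequences. Whole counts in both libraries were found for 44 of the 46 genes and for 90.2% of detected protein-coding genes. The pseudogene Ccnb1-ps took 1.48 and 1.24 expected counts, against 223.52 and 147.76 for Ccnb1, and Ccnb2-ps took 5 and 0.

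Cyclin-dependent kinase 1 (Cdk1) stood at 39.1 and 30.5 TPM, and Cdk2, its relative of S phase, at 24.0 and 22.5 TPM. On coding transcripts alone the order was the opposite, with means of 3.15 ± 1.12 TPM for Cdk1 (SD, n = 2) and 23.3 TPM for Cdk2. Of the activating phosphatases, Cdc25b was listed at 12.5 and 12.2 TPM. Cdc25c, on the other hand, was listed at 1.93 and 2.41 TPM. Cdc25b exceeded Cdc25c by 2.51 ± 0.25 on the log2 scale of TPM (SD, n = 2), and Cdc25a, which acts earlier in the cycle, had a mean of 20.2 ± 0.64 TPM (SD, n = 2). Aurora A kinase (Aurka), which works at the spindle poles, had 13.4 and 9.09 TPM. Its activator on microtubules, Tpx2, had 9.18 and 8.70 TPM. Tpx2 was below Aurka in both libraries on gene TPM, but on coding transcripts replicate 2 had 8.47 TPM of Tpx2 and 8.29 of Aurka. The germline relatives Ccna1, Ccnb3 and Aurkc were listed at 0 in both libraries.

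Aurora B kinase (Aurkb), the enzyme of the chromosomal passenger complex that corrects faulty attachments, stood at 163 and 92.3 TPM. Survivin (Birc5), which brings the complex to the centromere, stood at 115 and 86.4 TPM. Its window, printed above, held neither the CHR letters searched nor CCAAT letters. The scaffold Incenp stood at 75.1 and 112 TPM, and Cdca8 at 93.6 and 83.0 TPM. All 4 subunits thus lay between 75.1 and 163 TPM, with a median of 97.2 TPM, the highest of the 7 roles. On coding transcripts alone the subunits were less alike, with means of 101 ± 20.3 TPM for Birc5, 93.6 ± 26.2 for Incenp, 39.1 ± 14.1 for Aurkb and 38.1 ± 2.77 for Cdca8 (SD, n = 2). The ratio of Incenp to Aurkb changed sign between libraries, at -1.12 and 0.28 on the log2 scale of gene TPM. On coding transcripts alone Incenp was above Aurkb in both libraries, by 0.62 and 1.94. Aurkb exceeded Aurka by 3.48 ± 0.19 on the log2 scale of TPM (SD, n = 2).

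Of the APC/C activators and substrates, Cdc20, the activator that the checkpoint holds, stood at 125 and 93.8 TPM. Ube2c, which starts ubiquitin chains for the APC/C, stood at 96.1 and 64.2 TPM. Both were among the 10 highest of the 46 genes. The checkpoint protein Mad2l1, which binds Cdc20, was listed at 4.97 and 6.08 TPM, so that Cdc20 exceeded it by 4.30 ± 0.50 (log2 of TPM, SD, n = 2), and by 5.25 ± 0.21 on coding transcripts alone. Bub3 (55.7 and 49.2 TPM), Bub1b (15.0 and 13.8 TPM) and Bub1 (4.92 and 4.06 TPM), which signal from unattached kinetochores, kept this order in both libraries. The checkpoint kinase Ttk was the lowest of all 46 genes by gene TPM, at 1.24 and 0.75. By coding transcripts Ect2 was lower, with a mean of 0.38 TPM against 0.93 for Ttk. Separase (Espl1), the protease that cuts cohesin, stood at 14.3 and 13.1 TPM, above its inhibitor securin (Pttg1) at 5.85 and 5.47 TPM. This difference was 2.42-fold, and 4.71-fold on coding transcripts alone.

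Kinetochore genes spanned the range. Knstrn, a spindle adaptor at kinetochores, stood at 142 and 96.5 TPM. The median of the 7 was nevertheless 2.85 TPM, the lowest of any role. Subunits of the Ndc80 complex, which binds microtubule ends, were unequal. Spc24 had 40.0 and 39.5 TPM. Spc25 had 13.7 and 9.64 TPM. Ndc80 itself had 2.81 and 2.88 TPM, and Nuf2 had 1.76 and 2.34 TPM. Spc24 thus exceeded Ndc80 by 3.80 ± 0.04 (log2 of TPM, SD, n = 2), and its partner Spc25 by 1.79 ± 0.35. The large proteins of the outer kinetochore, the motor Cenpe (1.97 and 2.44 TPM) and Cenpf (1.42 and 2.41 TPM), were near the detection threshold.

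Motors and cytokinesis genes were mostly low. The spindle kinesin Kif11, which pushes poles apart, was listed at 4.70 and 3.67 TPM. The microtubule depolymerase Kif2c was listed at 4.87 and 3.99 TPM, and the chromokinesin Kif4 at 2.31 and 2.19 TPM. These values were below the median detected gene. At the central spindle, Racgap1 (25.2 and 14.4 TPM) and its motor partner Kif23 (14.4 and 11.2 TPM) form the centralspindlin complex. Kif23 was below Racgap1 on gene TPM and above it on coding transcripts, by 0.55 ± 0.09 (log2, SD, n = 2). Prc1, which bundles the microtubules there, had 10.7 and 6.27 TPM. The kinesins Kif20a (3.79 and 3.61 TPM) and Kif20b (1.90 and 2.09 TPM) and the ring scaffold Anln (3.48 and 2.66 TPM) were low as well. Ect2, which activates RhoA at the division plane, had 2.14 and 0.91 TPM and was the other gene under 1 TPM in a library. Kif20a shares 1271 exonic bases with Cdc23 on the opposite strand, which stood at 18.8 and 16.4 TPM. No source used here states whether counting used strand, so reads of such pairs may not be separated. The same holds for Prc1 with Rccd1, Kif4 with Pdzd11, Ncapg with Lcorl, Ccna2 with Exosc9 and Cdc20 with Elovl1. It also holds for Cdca8 with 9930104L06Rik and Cdc25b with Spef1. Opposite-strand partners at or near 0 TPM, or without a value, are not named.

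The condensation genes held the highest and some of the lowest values. Condensin subunit Ncapd2 led all 46 genes with 253 and 287 TPM. The ATPase Smc4 had 87.3 and 78.4 TPM, and its partner Smc2 had 6.82 and 9.75 TPM. The condensin subunits Ncaph (8.32 and 7.19 TPM) and Ncapg (2.94 and 2.43 TPM) were far below Ncapd2 although they belong to the same complex. Ncapg was lower than Ncapd2 by 100-fold in TPM, with a log2 ratio of -6.65 ± 0.32 (SD, n = 2). Of 26 pairs of partners or relatives compared in this way, 17 were over 2-fold apart, with the same sign, in each library. The share over other pairs of genes was not taken, so this count says nothing particular about partners.

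Several of the highest gene levels came from short transcripts that are not annotated as coding. A single transcript of 825 bases made up 48.3% and 48.2% of Ncapd2 TPM. It is annotated as a retained intron at chr6:125171052-125173909 (GRCm38). Exons of Ncapd2 share 237 bases on the same strand with the small RNA gene Scarna10, which was listed at 0 in both libraries. Coding transcripts of Ncapd2 (gene at chr6:125168007-125191701) had 25.4 and 25.2 TPM, with a share of the gene of 8.78% in replicate 2 and 10.04% in replicate 1. Counted by coding transcripts alone, Ncapd2 moved from rank 1 to rank 14 among the 46 genes. The ratio of Ncapg to Ncapd2 then was -3.34 ± 0.24 on the log2 scale (SD, n = 2), a 10.1-fold difference.

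Cdk1 showed the largest gap between all and coding transcripts, 11.0-fold. Its coding transcripts had 3.94 and 2.36 TPM. A retained intron transcript of 475 bases at chr10:69345005-69352910 (gene at chr10:69335146-69352938) made up 89.9% and 91.5% of its TPM. Because TPM is per length, this share is larger than the share of reads: coding transcripts took 33.8% and 32.2% of Cdk1 expected counts. Ccna2 followed the same pattern, with 84.5% and 86.0% of TPM in the retained intron transcript of 856 bases at chr3:36570451-36571964. Its coding level was 15.0 and 11.9 TPM, below cyclin B2, whereas the gene level was above it. Coding transcripts made up 30.0% and 31.6% of Aurkb TPM and 38.7% and 48.3% of Cdca8 TPM, but 60.7% and 62.3% of the expected counts of Aurkb and 63.5% and 70.8% of those of Cdca8. By TPM the most abundant transcripts of both were annotated as processed transcripts, that of Aurkb at chr11:69045671-69048218. On coding transcripts the excess of Aurkb over Aurka was 1.91 ± 0.13 (log2, SD, n = 2).

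Under 50% of TPM came from coding transcripts in both libraries for 5 of the 46 genes (Ncapd2, Aurkb, Ccna2, Cdca8 and Cdk1), against 17.8% of detected protein-coding genes. The mitotic genes therefore did not stand above the background in number. By gene level, which includes the noncoding transcripts, 4 of the 5 were among the 12 highest. By coding level Ncapd2, Aurkb, Ccna2, Cdca8 and Cdk1 ranked 14, 12, 17, 13 and 32. The same coding transcript was the most abundant in both libraries for 32 of the 46, against 74.2% of detected protein-coding genes. Judged by expected count in place of TPM it was 38 of the 46, which cannot be set against the 74.2% because that share was taken by TPM. For 29 genes the gene and coding levels were within 1.1-fold of each other, among them Cdc20, Birc5, Incenp, Ube2c and Plk1. Ranked by coding transcripts, Knstrn came first with a mean of 113 ± 30.6 TPM (SD, n = 2). This rank also rested on a short transcript: a coding transcript of 653 bases made up 79.71% and 75.15% of Knstrn TPM. The longest coding transcript of Knstrn, of 4602 bases, had a mean of 1.88 TPM, rank 31 by that measure. Another coding transcript, of 1241 bases, had a mean of 15.1 TPM. In Smc4 a coding transcript of 1163 bases had a mean of 30.9 TPM, against 18.3 TPM for the longest, of 4316 bases. In Ect2 the coding share was 8.41% in replicate 1 and 63.7% in replicate 2, so its split was not reproduced between libraries. The division of reads among transcripts is the authors' estimate.

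**Figure D3:**
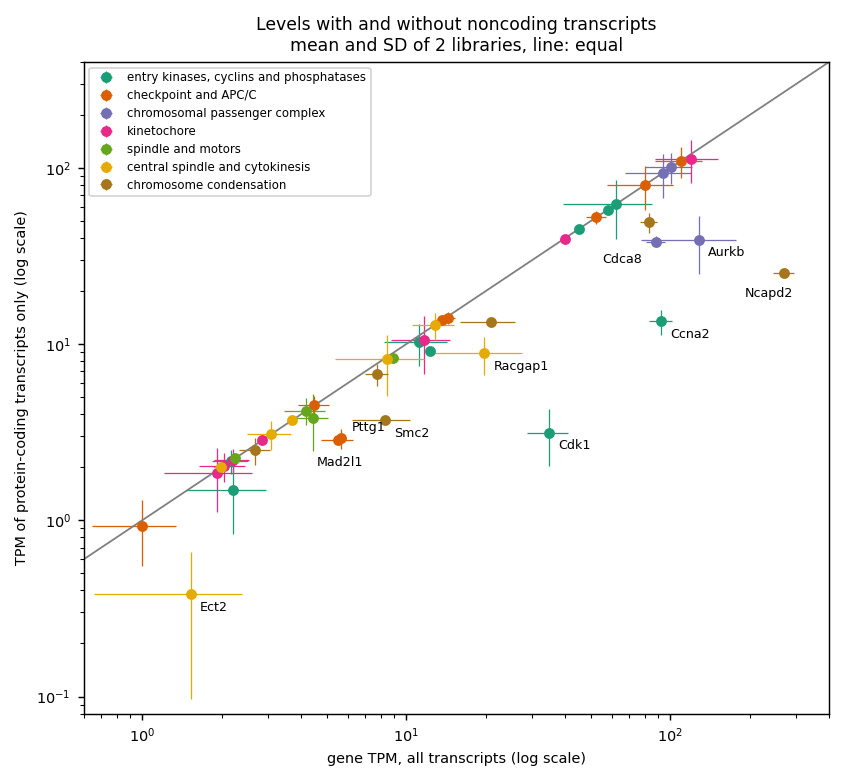
TPM of protein-coding transcripts against gene TPM from all transcripts (both log scales) for the 46 genes, coloured by role, as mean and SD of 2 libraries with the line of equality. Most genes lie on the line, while Ncapd2, Ccna2 and Cdk1 lie well below it.

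**Figure D4:**
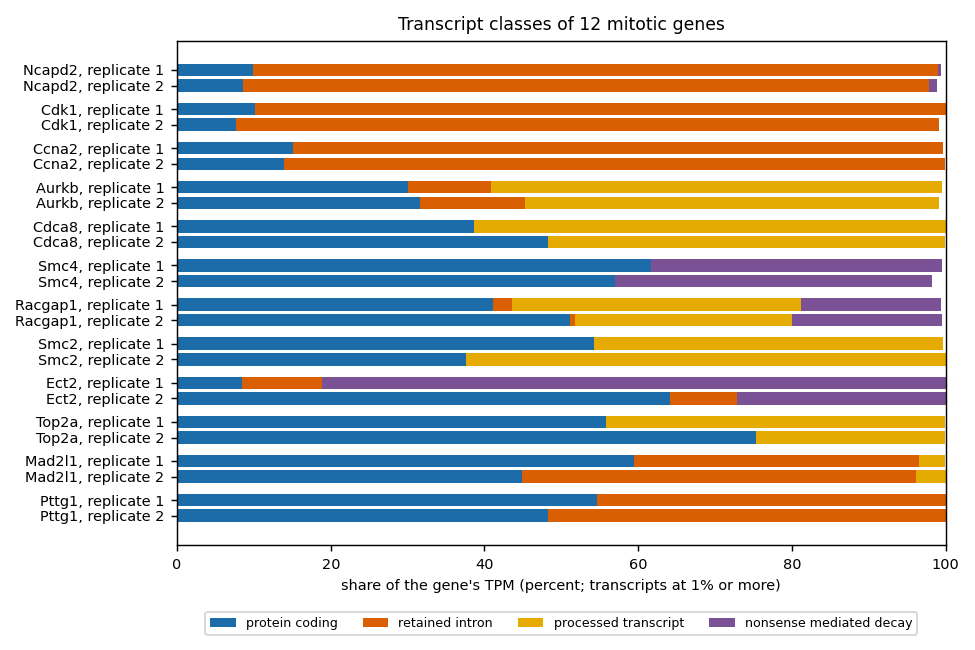
Share of gene TPM in percent by annotated transcript class in each library for 12 mitotic genes, counting transcripts with at least 1% of the gene. Retained intron transcripts hold most of Ncapd2, Cdk1 and Ccna2 in both libraries, and the classes of Ect2 differ between libraries.

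Replicate 1 had the higher value for 38 of the 46 genes, and replicate 2 for the other 8, on log2 CPM scaled by TMM, a factor that evens out composition between libraries. Of all genes past the count filter 50.2% were higher in replicate 1. The median difference, replicate 1 minus replicate 2, was 0.27 (log2, quartiles 0.12 and 0.51) against 0.00 over all genes. On the TPM scale 36 of the 46 were higher in replicate 1, against 39.6% of all genes. None of the 46 was over 2-fold apart, where 3.18% of all genes were over 2-fold higher in replicate 1 and 3.22% in replicate 2. Such differences were rarer among 10060 detected protein-coding genes past the filter, with 133 higher in replicate 1 and 60 in replicate 2. With 1 library on each side these differences have no test.

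The largest differences were as follows. Aurkb was higher in replicate 1 by 0.89, Plk1 by 0.87, Ttk by 0.87, Spc25 by 0.85, Prc1 by 0.74 and Kif2c by 0.73 on the log2 CPM scale. These genes work at different steps, from entry to cytokinesis. Incenp had the largest difference the other way, at -0.48, followed by Nuf2 at -0.29, Cdc25c at -0.22, Mad2l1 at -0.21 and Cenpe at -0.21. Cenpf, Kif20b and Ncapd2 were also on this side, between -0.05 and 0.00. By role, 4 of 4 spindle genes, 6 of 7 cytokinesis genes, 8 of 9 entry genes and 8 of 9 checkpoint genes were higher in replicate 1, as were 5 of 6 condensation genes, 3 of 4 passenger complex genes and 4 of 7 kinetochore genes. Role differences were not tested.

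The authors' TPM intervals, which cover estimation error within a library, did not overlap for 24 genes higher in replicate 1 and 4 higher in replicate 2. Those shares were 22.4% and 38.1% among detected protein-coding genes. In 35 DNA replication genes the median difference was 0.09, with 21 higher in replicate 1, and in 101 other mitotic genes it was 0.17, with 71 higher in replicate 1. Markers of other cell types also differed between the libraries. All 12 granulocyte and monocyte genes were higher in replicate 1 (median 0.77), as were 7 of 7 B cell genes past the filter (median 1.52, sums 109.8 and 39.9 TPM). Immediate early and heat shock genes, which are not markers of a cell type, were also higher in replicate 1 for 10 of 11 (median 0.73). The B cell marker Ms4a1 was at 0.12 and 0 TPM. All 9 stem and multipotent progenitor genes (median -0.54, sums 274.2 and 410.3 TPM) and 9 of 9 megakaryocyte genes past the filter (median -0.37) were higher in replicate 2. So were 7 of 10 erythroid genes (median -0.15) and 4 of 5 other condensation genes (median -0.11). The part of these cell types, or of whatever raised the immediate early and heat shock genes, in the difference of the mitotic genes was not tested.

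**Figure D5:**
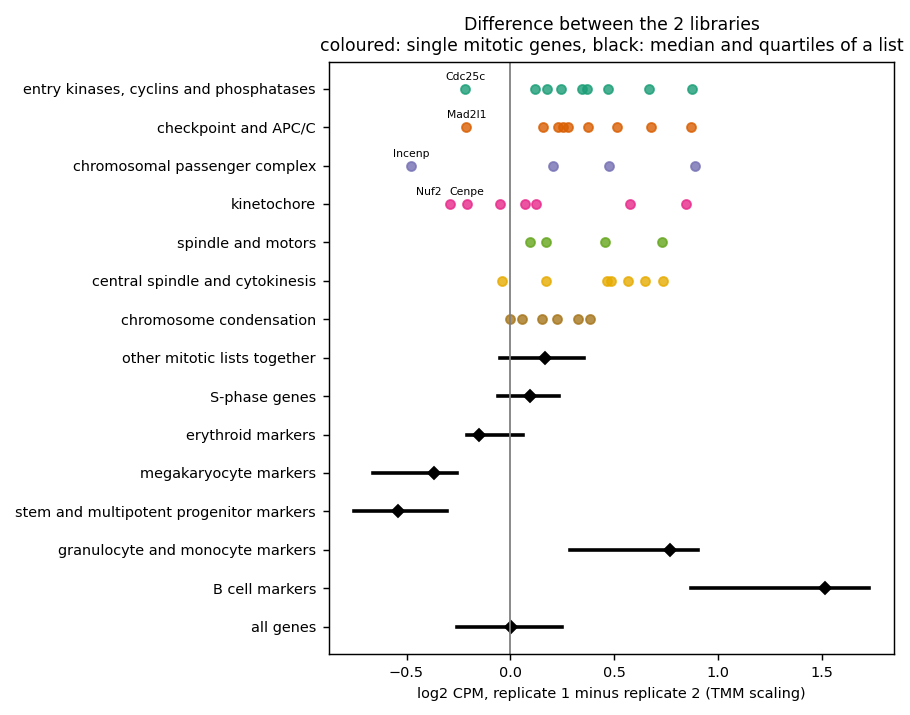
Log2 CPM difference, replicate 1 minus replicate 2, for each of the 46 mitotic genes by role (coloured points) and as median and quartiles (black diamonds and bars) for other gene lists. Most mitotic points lie right of 0, as do the granulocyte, monocyte and B cell lists, while stem and megakaryocyte lists lie left.

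The rest of the mitotic machinery was read from lists of genes outside the 46. Of 36 other centromere and kinetochore genes 34 were detected, with a median of 5.25 TPM. The histone variant of centromeres, Cenpa, had 155 and 140 TPM, and Pmf1, a subunit of the Mis12 complex, had 200 and 209 TPM. Both exceeded every kinetochore gene among the 46 in mean gene TPM, but on coding transcripts Cenpa had a mean of 70.3 TPM, below the 113 TPM of Knstrn. Of 17 other APC/C genes 16 were detected (median 24.2 TPM), with Ube2s, which extends ubiquitin chains, at 353 and 345 TPM and Anapc10 at 0.12 and 0.26 TPM. Of 16 other entry regulators 14 were detected, led by the Cdk1 subunit Cks2 (253 and 222 TPM) and the inhibitory kinase Pkmyt1 (241 and 216 TPM). Of 17 other spindle genes 14 were detected, with a median of 8.28 TPM, against 4.31 TPM for the 4 spindle genes above. On coding transcripts alone these medians were alike, at 3.96 and 4.005 TPM. Of 10 genes of the MuvB and DREAM complexes, which act on late cell cycle promoters, 8 were detected, with B-Myb (Mybl2) at 68.6 and 77.3 TPM and the core subunits Lin9 (1.07 and 0.83 TPM) and Lin52 (0.97 and 0.67 TPM) under the threshold in at least 1 library. The proliferation marker Mki67, which coats mitotic chromosomes, stood at 11.3 and 14.5 TPM.

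Across the 46 genes, level was weakly related to the length of the longest coding transcript (Pearson r -0.26, Spearman rho -0.22, n = 46 genes that share both libraries). Over 10042 detected protein-coding genes the values were -0.26 and -0.23, which is about the same. The difference between libraries had r -0.22 and rho -0.21 with length, against -0.14 and -0.17 over all detected genes. These are descriptions across genes, which are not independent replicates.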

How the data were processed

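Polyadenylated RNA was sequenced and placed on mm10, per the labels, with GENCODE M4 as annotation per a deposited readme. The sources used here do not give the aligner, the quantification program or the strand handling of counts. Per the file headers, the authors deposited an expected count per gene and transcript, TPM and FPKM values corrected for length, and the percent of each gene held by each transcript. The level of the authors' TPM intervals is not stated, and they belong to the posterior mean. FPKM was used only as an alternative.

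Of 43346 genes, 42462 matched GENCODE M21 (GRCm38) by identifier without version, which gave symbols, coordinates and transcript classes, and 884 did not. A further 26345 rows that name no Ensembl gene stayed out of totals. Expected counts were rounded and scaled with edgeR 4.0.16 (TMM factors 0.98 and 1.02, filterByExpr, 13546 genes kept, prior count 2) in R 4.3.3, with DESeq2 1.42.0 size factors as an alternative. Tables and plots were made in Python 3.11.15 (pandas 2.3.3, numpy 2.4.6, scipy 1.17.1, matplotlib 3.10.9). Level medians used log2(mean TPM + 1) and gene ratios a pseudocount of 0.01 TPM. Scaling was tested on simulated data. Floors cover counting error only.

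The members and lists were chosen with earlier results of these data known. All 46 members could be named, and of each other list the 3 highest and 2 lowest by mean TPM, with genes over 2-fold apart at a mean of 5 TPM or more, relatives, overlapping genes and pseudogenes of members. With 1 group no test between conditions was made. Alternatives were TPM thresholds, scalings, coding transcripts, pseudocounts, strand of promoter letters and leaving out each replicate. Protein sequences were not analysed here.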

Additional observations from a re-analysis of the deposited data

How the results depend on the processing

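At a TPM threshold of 5, 29 genes were detected in place of 44. The median level, 3.64 as log2(mean TPM + 1), was 3.26 on coding transcripts, 5.26 over members with a mean TPM of 5 or more and 1.98 on the longest coding transcript, an alternative added after seeing the data. The median difference between replicates, 0.267, was 0.265 with DESeq2 size factors, 0.191 on the TPM scale, 0.208 with library size only and 0.223 on coding transcripts (added after seeing the data). Members over 2-fold apart numbered 0, against 1 on the TPM scale and 1 on coding transcripts (Ect2 in both, in opposite directions: 1.22 and -1.63 on the log2 scale). On the strand of the gene only, CHR letters were in 22 windows, CCAAT letters in 17 and E2F letters in 3. The counts on either strand were 29, 27 and 6. The shares on the strand of the gene were 59.5%, 45.95% and 8.11%, against 7.71%, 22.5% and 10.1% of detected genes. The log2 ratio of Kif4 to Prc1, -1.86, was 3.47 with the longest coding transcript, which also turned Kif20b to Kif20a (-0.89 to 5.49), Incenp to Aurkb (-0.42 to 1.36) and Kif23 to Racgap1 (-0.58 to 10.31). The longest coding transcript of Racgap1 was listed at 0 TPM in both libraries, so the value of 10.31 rests on the pseudocount of 0.01 TPM. Those of Kif20a (0.19 and 0 TPM) and Prc1 (2.08 and 0.01 TPM) were at or near 0 in replicate 2. On all coding transcripts the ratios of Birc5 to Aurkb (-0.30 to 1.40), Incenp to Aurkb (to 1.28), Kif23 to Racgap1 (to 0.55) and Cdca8 to Aurkb (-0.48 to 0.01) changed sign, and on counts not corrected for length those of Incenp to Aurkb (1.35), Kif23 to Racgap1 (0.67) and Tpx2 to Aurka (-0.30 to 0.76). Without either replicate, detected members numbered 44 to 46, the median level was 3.42 to 3.80, coding main transcripts 37 to 38 and pairs over 2-fold 17 to 18. The count of 37 to 38 is looser than the 32 from both libraries, which also required the same transcript in each. Leaving out a replicate gives no difference between replicates. No paired analysis was possible because there was 1 group. Beyond the values given for the longest transcripts, the cause of these shifts was not tested. Depth limits mainly the genes with the fewest counts, Pttg1 (170 and 130), Ttk, Ccnb1, Cdc25c, Nuf2 and Ect2, and 2 libraries limit every SD.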
